A study of Mus musculus with 36 samples.

Results

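The class II antigen presentation genes Cd74, H2-Aa, H2-Ab1, H2-Eb1, H2-DMa, Ciita and Ctss, were followed in the brains of mice that had been given modafinil, a drug taken to stay awake, which binds and blocks the dopamine transporter. Every probe set annotated on the array platform to exactly 1 of these symbols was taken, which gave 15 of 45101 probe sets and 7 of 18194 named genes. A probe set is a group of short probes that together read part of a transcript. H2-Aa had 4, Ciita and H2-Ab1 had 3 each, H2-DMa had 2, and Cd74, H2-Eb1 and Ctss had 1 each.

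The mice were male C57B1/6J animals put through conditioned place preference, in which a drug is paired with 1 compartment of a box. Treated mice received modafinil at 65 mg/kg on drug days, between days 3 and 10 of training, and vehicle mice received saline on those days. Both groups also received saline on the alternate days. On day 11, when 24 h had passed since the final dose, preference was tested and brains were taken, and tissue was punched from 3 regions: the ventral tegmental area (VTA), the nucleus accumbens (NAC) and the prefrontal cortex (PFC). VTA and NAC each had 5 modafinil arrays and 5 vehicle arrays, and PFC had 8 of each. Whether every array stands for its own mouse, and whether 1 mouse gave several regions, is not stated in the labels, so p-values cover the spread between these samples, which may be technical. For VTA and NAC, 2 tissue pieces were pooled where the RNA was good enough.

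Class II molecules are pairs of an alpha and a beta chain that hold peptides on the surface of antigen-presenting cells for CD4+ T cells. H2-Aa and H2-Ab1 encode the chains of the mouse molecule I-A, and H2-Eb1 encodes the beta chain of I-E. Cd74 is the invariant chain that fills the groove until it is cut away by proteases such as cathepsin S, the product of Ctss, and H2-DMa encodes a chain of the DM molecule, which swaps the last invariant chain fragment for peptide. Ciita is the transactivator that switches most of these genes on and is itself induced by interferon gamma. In the brain, class II is best known on macrophages at the borders and on activated microglia, and it is low in resting tissue. C57BL/6 mice carry a class II haplotype whose H2-Ea promoter is deleted, so they make no I-E molecule.

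The control regions of class II genes carry an X box and a Y box, which the RFX and NF-Y factors bind before Ciita joins them. The 250 bases before the annotated start of H2-Aa, H2-Eb1 and Ctss are shown because these genes differ in such elements and all 3 are described below. They come from RefSeq (GRCm38.p6), where 4 of the 7 genes had an entry, and the capitals mark matches to the letters searched on both strands.

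H2-Aa, chr17:34287824-34288073, minus strand: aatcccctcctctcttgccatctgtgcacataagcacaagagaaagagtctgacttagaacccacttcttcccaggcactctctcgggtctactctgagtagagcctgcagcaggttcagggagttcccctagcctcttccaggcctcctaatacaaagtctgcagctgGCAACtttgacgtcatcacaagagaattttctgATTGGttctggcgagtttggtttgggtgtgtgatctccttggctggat
H2-Eb1, chr17:34305617-34305866, plus strand: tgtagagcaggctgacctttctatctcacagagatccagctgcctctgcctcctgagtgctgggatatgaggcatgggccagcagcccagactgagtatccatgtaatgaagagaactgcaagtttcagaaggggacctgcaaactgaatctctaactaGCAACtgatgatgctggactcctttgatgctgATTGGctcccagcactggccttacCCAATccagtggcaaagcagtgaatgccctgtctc
Ctss, chr3:95526536-95526785, plus strand: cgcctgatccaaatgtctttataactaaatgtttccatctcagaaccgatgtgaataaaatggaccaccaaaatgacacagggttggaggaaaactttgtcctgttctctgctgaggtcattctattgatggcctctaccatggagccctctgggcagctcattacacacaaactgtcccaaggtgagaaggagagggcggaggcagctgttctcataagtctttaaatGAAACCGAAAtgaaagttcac

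In the H2-Aa window the X box core GCAAC began at −81 from the start and the Y box core ATTGG at −48, with 28 bases between them. H2-Eb1 had GCAAC at −91 and then ATTGG, with 27 bases between them, and a further Y box core on the opposite strand. Of all 32851 windows of this length, 29.9% held GCAAC, 33.8% held ATTGG, and 0.843% held GCAAC followed by ATTGG at a distance of 20 to 40 bases. The Ctss window held neither core but had 1 match, at −21, to the repeat of the interferon-stimulated element (GAAA, any 2 bases, GAAA), and 2.98% of all windows held one. Of the 2 windows of H2-DMa, 1 held GCAAC and the other ATTGG, so neither held the pair. None of the 5 windows held TTCNNNGAA, the gamma-activated site, which 7.02% of all windows held. These are matches of letters and not measured binding.

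Most of the probe sets read low. Values are RMA values on the log2 scale, and the place of a probe set among all probe sets of its array shows how near it was to the floor. Ctss stood between 95.04 and 96.2 (percentile, mean of each of the 6 groups), Cd74 between 53.1 and 60.2, and H2-DMa probe set 1422527_at between 45.7 and 70.4. H2-Eb1 lay between 34.3 and 52.1. Of the 4 H2-Aa probe sets, 1438858_x_at lay between 33.4 and 49.5, 1435290_x_at between 14.95 and 54.4, 1452431_s_at between 13.3 and 25.03, and 1443783_x_at between 0.555 and 2.06, which is the floor of the array. The 3 H2-Ab1 probe sets lay between 13.6 and 39.2, the 3 Ciita probe sets between 4.83 and 35.9, and H2-DMa 1459872_x_at between 10.2 and 20.1. For scale, 14 genes of testis, pancreas and other organs that brain should lack had a median percentile of 17.9 in VTA, 14.9 in NAC and 19.1 in PFC in vehicle arrays, with a range of 7.72 to 64.4. Apart from Ctss, and H2-DMa 1422527_at in NAC and PFC, no probe set of the 15 stood above the top of that range, and the floor-level H2-Aa and Ciita probe sets reached below its lower end. Probe sets whose name ends in _x_at or _s_at can also bind related transcripts.

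**Figure D1:**
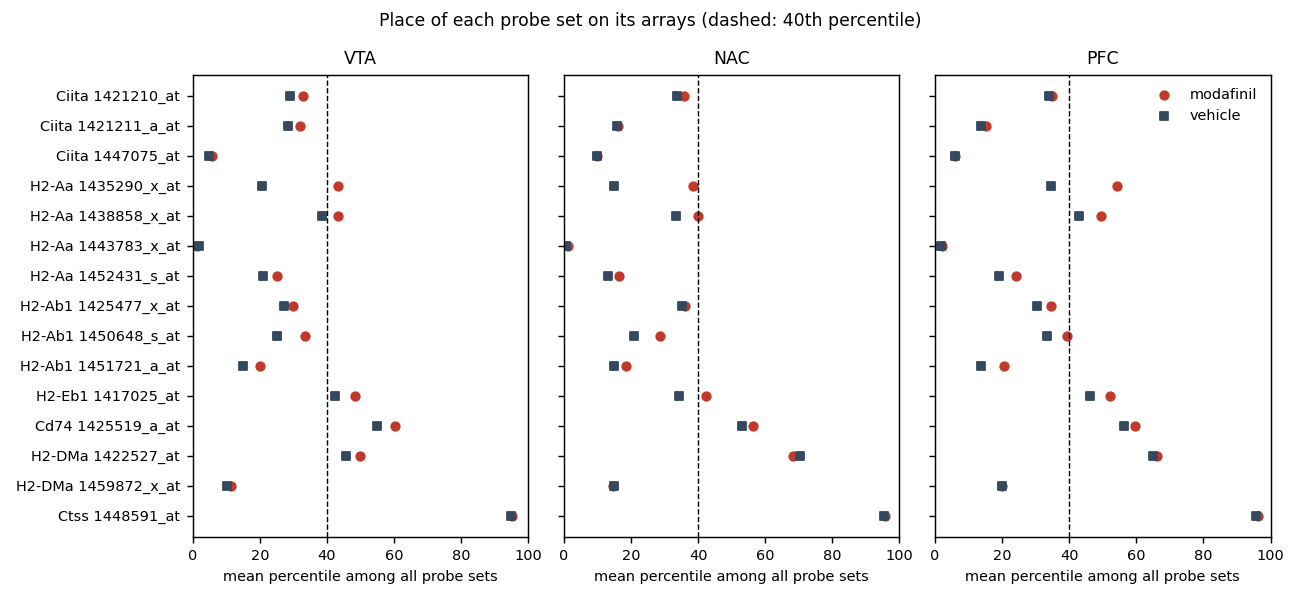
Mean percentile of each of the 15 probe sets among all probe sets of its arrays, in modafinil (circles) and vehicle (squares) arrays of each region. The dashed line marks the 40th percentile used as the filter. Ctss lies near the top of the array, Cd74 and H2-DMa 1422527_at in the middle, and the Ciita and H2-Ab1 probe sets to the left of the line.

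A filter kept every probe set with a mean, in the arrays being compared, at or above the 40th percentile, which left 27003 to test. Of the 15 it kept 5 in VTA, 3 in NAC and 6 in PFC, and 5 across the 3 regions. No Ciita or H2-Ab1 probe set passed it anywhere, so these were tested only in a fit of all 45037 probe sets without the filter. On vehicle arrays alone H2-Aa 1438858_x_at would not have passed in VTA or across the regions, nor H2-Aa 1435290_x_at in PFC, so these entered through the modafinil arrays. Counts over the probe sets that passed are therefore given as a description, beside those of all 15 without the filter. All 36 arrays entered the comparisons. Within a group, arrays correlated with one another at 0.987 to 0.995 on average, and precision is limited by how many arrays there were. The transcript of the dopamine transporter, Slc6a3, ran from 8.08 to 12.43 in VTA arrays and stayed at or under 5.93 in NAC and 7.22 in PFC, and that of the dopamine receptor Drd1 ran from 10.58 to 12.01 in NAC.

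In 1 fit of the 3 regions together, which took out the level of each region, Cd74, H2-Eb1 and H2-Aa rose in modafinil mice. Their changes were 0.26 for Cd74 (log2 modafinil minus vehicle, SE 0.0497, adjusted p = 0.00429), 0.42 for H2-Eb1 (SE 0.0869, adjusted p = 0.0084) and 0.40 for H2-Aa 1438858_x_at (SE 0.0829, adjusted p = 0.00972), with 18 arrays per group. These are 1.19-, 1.34- and 1.32-fold. Thus 3 of the 5 probe sets tested passed, all higher, against 0.841% of all probe sets tested in either direction and 0.444% higher. H2-Aa 1438858_x_at had entered through the modafinil arrays (percentile 45.3, against 38.9 in vehicle arrays). The members were also chosen with earlier results of these data known. This count and those below are therefore a description. The other members tested, Ctss at 0.13 (SE 0.0588, adjusted p = 0.256) and H2-DMa at 0.05 (SE 0.0785, adjusted p = 0.765), did not pass. More cells of a type and more RNA per cell cannot be told apart in punched tissue.

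Without the filter 7 of the 15 probe sets passed across the regions, again all higher, against 0.5% of all 45037 (0.357% higher). They read 4 genes: Cd74, H2-Eb1, H2-Aa and H2-Ab1. H2-Aa 1435290_x_at had the largest change of the 15, 1.43 (SE 0.265, adjusted p = 0.00352), which is 2.69-fold. H2-Aa 1452431_s_at changed by 0.34 (SE 0.0672, adjusted p = 0.00768), H2-Ab1 1451721_a_at by 0.45 (SE 0.0989, adjusted p = 0.0217) and H2-Ab1 1425477_x_at by 0.21 (SE 0.0477, adjusted p = 0.028). The third H2-Ab1 probe set, 1450648_s_at, had 0.46 with the widest error of the 3 (SE 0.125, adjusted p = 0.0838). The fourth H2-Aa probe set, at the floor, had 0.04 (adjusted p = 0.747), so the probe sets of this gene disagreed in size from 0.04 to 1.43. None of the 3 Ciita probe sets passed, with changes of 0.05 to 0.15 and adjusted p-values of 0.196 to 0.656.

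**Figure D2:**
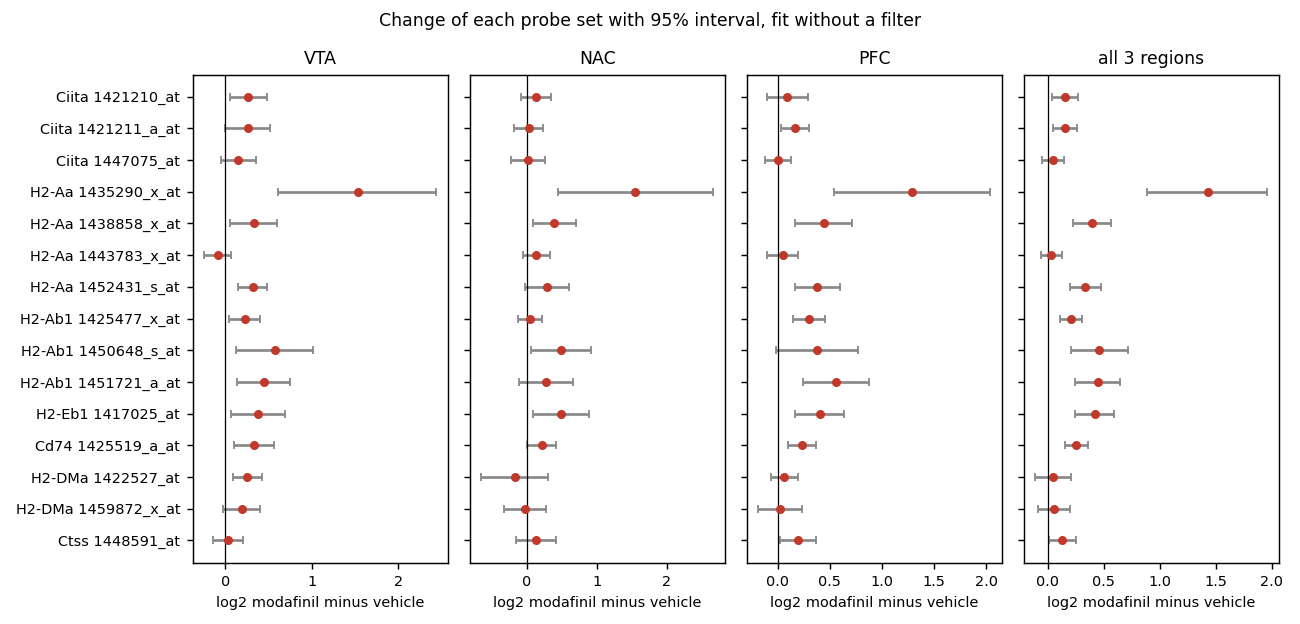
Change of each probe set, as log2 modafinil minus vehicle with its 95% interval, in VTA, NAC and PFC (n = 5, 5 and 8 arrays per group) and across the 3 regions, from the fit without a filter. H2-Aa 1435290_x_at lies farthest to the right in every panel, and H2-Aa 1443783_x_at lies near 0.

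Within a single region no member passed the threshold. In VTA 0 of 5 tested probe sets were called, against 0.259% of all 27003; in PFC 0 of 6, against 0.0518%; in NAC 0 of 3, in a comparison where 0% were called. At an unadjusted p under 0.05 the members higher in modafinil arrays were 4 of 5 in VTA (6.84% of all probe sets tested), 1 of 3 in NAC (1.14%) and 5 of 6 in PFC (3.61%), and no member was lower at that level. Across the regions they were 4 of 5 (3.61%), and 11 of 15 without the filter (5.81%). H2-Aa 1438858_x_at in VTA and across the regions, and H2-Aa 1435290_x_at in PFC, had entered through the modafinil arrays. The counts with the filter are therefore a description. Without the filter the members under that p were 10 of 15 in VTA (6.98%), 4 of 15 in NAC (1.53%) and 9 of 15 in PFC (5.59%), all higher. After adjustment 0 of 15 passed in each region, where 0%, 0% and 0.0377% of all probe sets did.

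H2-Aa, the alpha chain of I-A, was read most strongly by 2 probe sets. H2-Aa 1435290_x_at stood at 7.63, 6.66, 5.04, 5.97 and 6.63 in the modafinil VTA arrays, against 5.98, 4.43, 4.796, 4.35 and 4.76 in the vehicle VTA arrays. Modafinil arrays 1, 2 and 5 lay above every vehicle array, and arrays 3 and 4 lay just under the single high vehicle array or lower. In NAC the modafinil arrays read 7.36, 7.33, 4.79, 4.41 and 6.54 and the vehicle arrays 4.62, 4.51, 4.75, 3.98 and 4.84. The modafinil NAC arrays were thus split, with arrays 1, 2 and 5 more than 1 log2 unit above every vehicle array and arrays 3 and 4 among them.

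In PFC the same probe set ran from 6.29 to 8.53 in modafinil arrays (median 8.08), against 5.34 to 7.53 in vehicle arrays (median 6.20). Arrays 1, 2, 5, 7 and 8 of the modafinil group lay above every vehicle array, and arrays 3, 4 and 6 lay among them. The changes were 1.53 in VTA (SE 0.42, adjusted p = 0.138), 1.55 in NAC (SE 0.512, adjusted p of at least 0.9997) and 1.29 in PFC (SE 0.36, adjusted p = 0.243). The probe set passed the filter in PFC only, and the VTA and NAC values come from the fit without it.

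H2-Aa 1438858_x_at, the brightest H2-Aa probe set, read 6.78, 6.41, 6.08, 6.42 and 6.23 in modafinil VTA arrays, against 6.22, 6.01, 5.77, 6.05 and 6.21 in vehicle VTA arrays. In NAC it read 6.56, 6.50, 5.80, 5.90 and 6.37, against 5.89, 5.68, 5.95, 5.89 and 5.75 in vehicle. Arrays 1, 2 and 5 of the modafinil group in NAC were again the high ones. In PFC it ran from 6.73 to 7.68 in modafinil arrays (median 7.22), against 6.59 to 7.22 in vehicle arrays (median 6.68), with 4 of 8 modafinil arrays above every vehicle array. The changes were 0.33 in VTA (SE 0.125, adjusted p = 0.171), 0.39 in NAC without the filter (SE 0.143) and 0.44 in PFC (SE 0.131, adjusted p = 0.271).

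The partner chain H2-Ab1 was dim on all 3 of its probe sets. H2-Ab1 1425477_x_at ran from 6.10 to 6.76 in modafinil PFC arrays (median 6.28), against 5.89 to 6.09 in vehicle PFC arrays (median 6.06). It was the only one of the 15 whose PFC groups did not overlap, which without the filter was true of 0.04% of all probe sets with modafinil higher, yet its adjusted p was 0.198 (change 0.30, SE 0.0734). In VTA it read 5.77, 5.58, 5.48, 5.45 and 5.54, against 5.49, 5.43, 5.16, 5.35 and 5.25 in vehicle, a change of 0.22. In NAC the groups lay together at 5.82 to 6.17 in modafinil arrays and 5.82 to 6.00 in vehicle arrays, a change of 0.05.

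H2-Ab1 1451721_a_at had changes of 0.44 in VTA (SE 0.139), 0.27 in NAC (SE 0.176) and 0.56 in PFC (SE 0.151), with adjusted p-values of 0.172 in VTA and 0.274 in PFC. In PFC 6 of 8 modafinil arrays lay above every vehicle array. The third, 1450648_s_at, had 0.57 in VTA (SE 0.207), 0.49 in NAC (SE 0.199) and 0.38 in PFC (SE 0.19), where modafinil arrays ran from 5.69 to 7.30 and vehicle arrays from 5.93 to 6.60. In PFC its lowest array was therefore a modafinil array.

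H2-Eb1, the I-E beta chain, read 7.04, 7.09, 6.30, 6.42 and 6.55 in modafinil VTA arrays, against 6.43, 6.23, 6.20, 6.24 and 6.38 in vehicle VTA arrays. In NAC it read 7.03, 6.56, 6.00, 5.93 and 6.31, against 5.68, 6.08, 5.64, 6.01 and 5.98 in vehicle. In PFC it ran from 6.95 to 7.78 in modafinil arrays (median 7.47), against 6.65 to 7.26 in vehicle arrays (median 6.96). In VTA 3 of 5 modafinil arrays, 3 of 5 in NAC and 6 of 8 in PFC lay above every vehicle array of their region. The changes were 0.38 in VTA (SE 0.144, adjusted p = 0.169), 0.49 in NAC without the filter (SE 0.183) and 0.40 in PFC (SE 0.112, adjusted p = 0.243).

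Cd74, the invariant chain, read 7.53, 7.77, 7.37, 7.47 and 7.16 in modafinil VTA arrays, against 7.22, 7.32, 7.10, 7.07 and 6.93 in vehicle VTA arrays. In NAC it read 7.52, 7.20, 7.19, 7.02 and 7.42, against 6.99, 7.09, 6.97, 7.19 and 7.07 in vehicle. In PFC it ran from 7.68 to 8.11 in modafinil arrays (median 7.88), against 7.51 to 7.79 in vehicle arrays (median 7.67). For Cd74 4 of 5 modafinil arrays in VTA, 4 of 5 in NAC and 6 of 8 in PFC lay above every vehicle array of the region, by a narrow margin for those in NAC nearest to 7.19. Its changes were 0.33 in VTA (SE 0.107, adjusted p = 0.127), 0.21 in NAC (SE 0.0956, adjusted p of at least 0.9998) and 0.24 in PFC (SE 0.0635, adjusted p = 0.227). With all 36 arrays in 1 fit, which shares the estimate of the spread, the VTA value passed (adjusted p = 0.0435). How many of all probe sets passed in that fit is not given here.

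**Figure D3:**
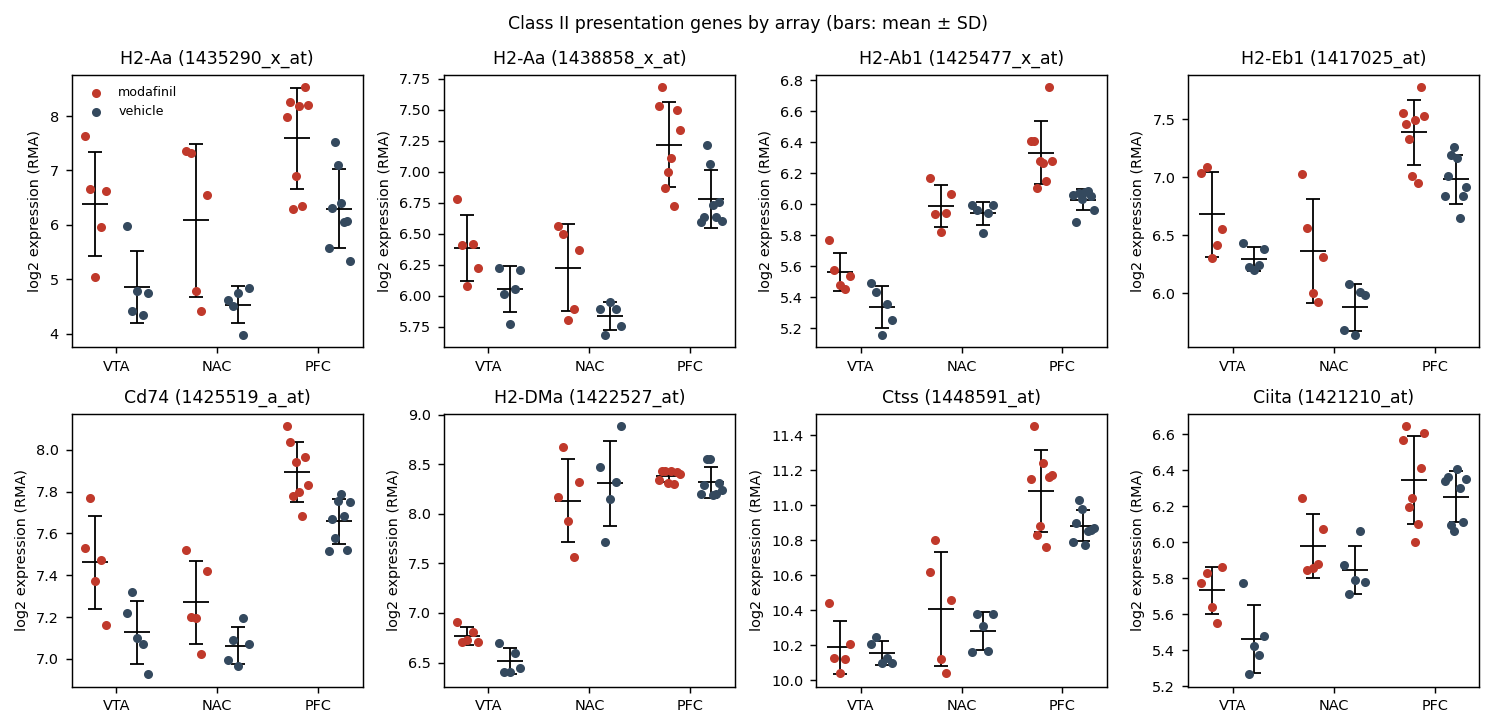
Log2 value of 8 probe sets in every array (the brightest of each gene, and first the H2-Aa probe set with the largest change across regions), with modafinil arrays left of vehicle arrays in each region; bars give the mean and SD. In NAC 3 modafinil arrays of H2-Aa lie above every vehicle array and 2 do not, while the H2-DMa groups overlap in NAC and PFC.

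Ctss and H2-DMa passed in no comparison with vehicle. Ctss, the protease that trims the invariant chain, read 10.44, 10.13, 10.04, 10.12 and 10.21 in modafinil VTA arrays and 10.21, 10.25, 10.10, 10.13 and 10.10 in vehicle VTA arrays, a change of 0.03 (SE 0.0763, adjusted p = 0.839). In NAC it read 10.62, 10.80, 10.12, 10.04 and 10.46, against 10.16, 10.38, 10.31, 10.17 and 10.38 in vehicle. Its NAC arrays had the order seen for H2-Aa, with arrays 1, 2 and 5 above every vehicle array and arrays 3 and 4 below every one, and the mean change was 0.13 (SE 0.135). In PFC it ran from 10.76 to 11.45 in modafinil arrays, against 10.77 to 11.03 in vehicle arrays, a change of 0.20 (SE 0.0825, adjusted p = 0.385).

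H2-DMa 1422527_at read 6.91, 6.70, 6.72, 6.81 and 6.70 in modafinil VTA arrays, against 6.70, 6.41, 6.41, 6.60 and 6.45 in vehicle VTA arrays. Its VTA groups did not overlap, by a small margin (6.703 for the lowest modafinil array, 6.701 for the highest vehicle array), as was true of 1.8% of all probe sets tested there with modafinil higher, and the change of 0.26 (SE 0.074) had an adjusted p of 0.1. In NAC its arrays ran from 7.56 to 8.68 in modafinil mice and from 7.71 to 8.88 in vehicle mice, with a change of −0.18 (SE 0.223), and in PFC the change was 0.06 (SE 0.059, adjusted p = 0.656). The dim H2-DMa probe set had 0.19 in VTA, −0.02 in NAC and 0.02 in PFC.

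Ciita, the transactivator, was dim on all 3 probe sets. Its brightest probe set, 1421210_at, read 5.77, 5.83, 5.64, 5.55 and 5.86 in modafinil VTA arrays, against 5.77, 5.26, 5.42, 5.37 and 5.48 in vehicle VTA arrays, a change of 0.27 (SE 0.0973, adjusted p = 0.221). It had 0.14 in NAC (SE 0.0978) and 0.09 in PFC (SE 0.0921), where modafinil arrays ran from 6.00 to 6.64 and vehicle arrays from 6.06 to 6.41. The other Ciita probe sets had changes between 0.00422 and 0.26 in the 3 regions. Across the regions 1421210_at changed by 0.15 (95% interval 0.036 to 0.271), which did not pass after adjustment.

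Modafinil arrays differed in how many member probe sets they read above every vehicle array. Of the 15 probe sets, modafinil VTA arrays 1 to 5 had 12, 12, 4, 5 and 9 above the highest vehicle array. Modafinil NAC arrays 1 to 5 had 11, 10, 1, 0 and 10. In PFC the counts for arrays 1 to 8 were 9, 11, 2, 4, 8, 2, 10 and 11. How many of all probe sets lay above every vehicle array in each of these arrays is not given here. Probe sets of the same gene are also counted separately. The counts are therefore a description. The lowest counts were those of VTA array 3, NAC array 4 and PFC arrays 3 and 6. The interferon-induced GTPase gene Gbp2 had values of 9.285, 9.28, 5.92, 9.02 and 9.29 in modafinil VTA arrays 1 to 5, against 5.96 to 6.36 in vehicle VTA arrays. In NAC it had 9.41, 8.86, 6.72, 5.97 and 8.99 in modafinil arrays, against 5.79 to 6.165 in vehicle arrays. In PFC it had 8.91, 10.16, 7.31, 9.28, 9.37, 6.26, 9.60 and 9.52 in modafinil arrays 1 to 8, against 5.90 to 6.83 in vehicle arrays. VTA array 3, NAC array 4 and PFC array 6 were thus no higher than the highest vehicle array for Gbp2. Why some modafinil arrays lay at the vehicle level was not tested.

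**Figure D4:**
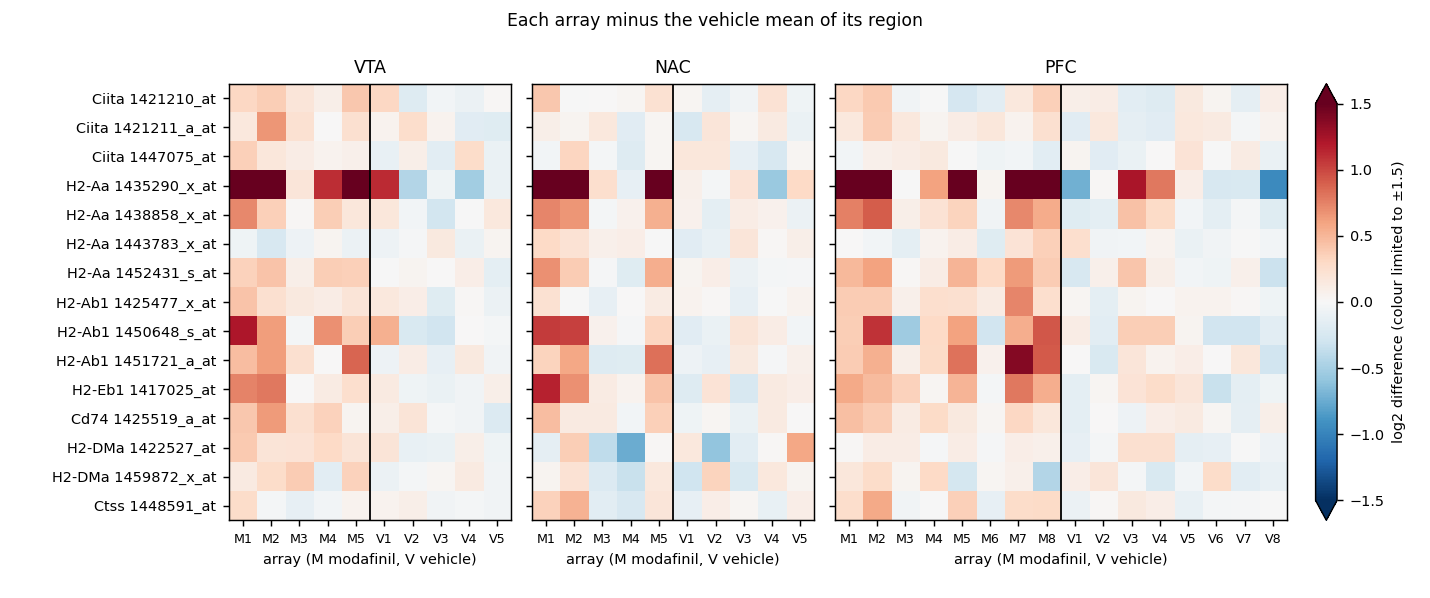
Log2 value of each probe set (rows) in each array (columns) minus the vehicle mean of its region, with modafinil arrays (M) left of vehicle arrays (V); red is higher and blue lower, and the colour stops at 1.5. For H2-Aa 1435290_x_at, NAC arrays M1, M2 and M5 lie 2.83, 2.79 and 2.00 above the vehicle mean and M3 and M4 at 0.25 and −0.12, while H2-DMa 1422527_at is blue in M3 and M4 (−0.38 and −0.74).

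How far the members moved together was described by Pearson correlation over the 36 arrays after each group mean was subtracted; arrays of a region share their tissue and scale, and no p is given. H2-Aa 1435290_x_at and H2-Aa 1438858_x_at correlated at 0.843, H2-Aa 1435290_x_at and Ctss at 0.846, and H2-Aa 1435290_x_at and H2-Eb1 at 0.775. Cd74 stood somewhat apart, with 0.572 to H2-Eb1, 0.375 to Ctss and 0.385 to H2-Aa 1435290_x_at. Ciita 1421210_at had 0.335 with H2-Aa 1435290_x_at and 0.425 with Cd74. Gbp2 had 0.794 with H2-Aa 1435290_x_at, 0.766 with Ctss, 0.643 with H2-Eb1 and 0.493 with Cd74.

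The genes whose arrays were most like each member, by the same measure, were read from the brightest probe set of each. For Ctss they were Csf1r (0.879), the growth factor receptor of microglia, then Mpeg1, Slc2a1, AU020206 and Tapbp, the last of these at 0.84. For H2-Aa they were Cp (0.839), Tgm2, Lyz1, Lyz2 and Ctsc (0.804), and for H2-Eb1 they were the lysozyme gene Lyz2 (0.743), Grasp, Ccl8, Lyz1 and AU020206 (0.708). Cd74 was most like Cgas (0.707), Nt5e, Runx1, Mapre1 and Irf8 (0.672). H2-Ab1 was most like Rassf3 (0.656), AU020206, H2-K1, Zbp1 and Psmb9 (0.598). H2-DMa was most like Wfs1 (0.883), Slc30a10, Cd68, Kcnip2 and Pdzd2 (0.843), and its likeness to Wfs1 was 0.92 in NAC and 0.343 in VTA. For Ciita the highest was 0.70, to Rhbdd3, followed by Wfdc12, Aqp11, Il18rap and Sp110 (0.637).

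Whether the change differed between regions was tested directly, and no member passed in any of the 3 contrasts. Of the 5 tested, 0 were called for VTA minus NAC (0.278% of all probe sets were), 0 for VTA minus PFC (0.904%) and 0 for NAC minus PFC (0% called). The lowest p was that of H2-DMa for VTA minus NAC, where the changes differed by 0.43 (95% interval 0.0186 to 0.845, adjusted p = 0.419). For Cd74 the VTA change minus the NAC change was 0.12 (95% interval −0.15 to 0.40) and for H2-Eb1 it was −0.10 (−0.59 to 0.38). The intervals for H2-Aa 1438858_x_at ran from −0.52 to 0.40 for VTA minus NAC and from −0.47 to 0.37 for NAC minus PFC, so differences as large as the changes themselves were not resolved. At an unadjusted p under 0.05 the counts were 1, 0 and 0 of 5, where 11.2%, 12.1% and 4.91% of all probe sets passed.

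In vehicle mice alone the levels of some members differed by region, as did those of 58.2% to 65.1% of all probe sets tested. Such a difference is therefore not particular to the members. The deposited PFC values lie on another scale, so the 18 vehicle arrays were quantile normalized together, which moved the median by 0.22 in VTA, 0.17 in NAC and −0.25 in PFC. On that scale H2-DMa averaged 8.49 ± 0.44 in NAC, 8.08 ± 0.14 in PFC and 6.73 ± 0.12 in VTA (SD, n = 5, 8 and 5). It was higher in NAC than in VTA by 1.76 (SE 0.146, adjusted p = 5.27e-09) and in PFC than in VTA by 1.34 (SE 0.132, adjusted p = 3.73e-08). PFC minus NAC was −0.41 (adjusted p = 0.0115), but 0.00991 on the deposited values (adjusted p = 0.946), so the order of NAC and PFC depended on the scaling.

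H2-Eb1 ordered otherwise, at 6.76 ± 0.20 in PFC, 6.52 ± 0.10 in VTA and 6.03 ± 0.175 in NAC. PFC exceeded NAC by 0.73 (SE 0.0934, adjusted p = 2.31e-06), NAC minus VTA was −0.49 (SE 0.104, adjusted p = 0.00045), and PFC minus VTA was 0.24 (SE 0.0934, adjusted p = 0.0333). Cd74 averaged 7.43 ± 0.10 in PFC, 7.34 ± 0.14 in VTA and 7.22 ± 0.09 in NAC. Of its neighbours in that order neither PFC and VTA (difference 0.09, adjusted p = 0.212) nor NAC and VTA (difference −0.12, adjusted p = 0.139) passed, while PFC minus NAC did (0.21, adjusted p = 0.00715). On the deposited values, whose PFC scale lies higher, PFC minus VTA for Cd74 was 0.53 and passed. On those values H2-Eb1 had 0.69 for PFC minus VTA and 1.10 for PFC minus NAC. Ctss stood at 10.55 ± 0.09 in PFC, 10.55 ± 0.09 in NAC and 10.42 ± 0.07 in VTA, and PFC minus VTA passed at 0.14 (adjusted p = 0.0278). On the deposited values Ctss had 0.725 for PFC minus VTA (adjusted p = 3.74e-10) and 0.603 for PFC minus NAC (adjusted p = 6.5e-09), so the size of its difference depended on the scaling. In these contrasts 2, 3 and 3 of the 4 members tested passed for NAC minus VTA, PFC minus VTA and PFC minus NAC, where 59.4%, 65.1% and 58.2% of all probe sets did.

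The PFC minus VTA calls of H2-Eb1 and Ctss depended on which arrays were included. The H2-Eb1 call was lost without vehicle VTA array 2, 3 or 4 or vehicle PFC array 3, 4 or 5, with adjusted p-values of 0.0603 to 0.0763. The Ctss call was lost without vehicle VTA array 3, 4 or 5 or vehicle PFC array 3, with 0.0521 to 0.0709.

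H2-Aa, H2-Ab1 and Ciita were under the filter in these arrays. Without it 10, 10 and 12 of the 15 probe sets passed for NAC minus VTA, PFC minus VTA and PFC minus NAC, where 56.2%, 62.1% and 56.2% of all probe sets did. The 3 Ciita probe sets went different ways from VTA to PFC, at 0.31, −1.05 and 0.17 for PFC minus VTA. H2-Aa 1435290_x_at averaged 6.05 ± 0.74 in PFC, 5.13 ± 0.63 in VTA and 4.71 ± 0.34 in NAC, and H2-Aa 1438858_x_at had 6.55 ± 0.24, 6.28 ± 0.16 and 5.98 ± 0.13 in the same regions.

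No other gene of the class II route passed the test. Of 29 such genes 28 had a probe set with 1 symbol, and the filter left 23 in VTA, 24 each in NAC and PFC, and 23 across the regions. In each of these 0 were called, where 0.259%, 0%, 0.0518% and 0.841% of all probe sets tested were. With shares that small, 0 called does not set these genes apart. At an unadjusted p under 0.05, 0 of the 23 were higher across the regions, where 3.61% of all probe sets tested were, and 3 were lower, where 13% were. The 3 were Nfyb, a subunit of the Y box factor (−0.10, adjusted p = 0.19), Creb1, a factor that binds next to the X box (−0.08, adjusted p = 0.2) and Marchf1, which marks class II molecules for removal (−0.15, adjusted p = 0.271). The 23 had a median change of −0.03 across the regions, beside −0.03 over all probe sets tested. The probe set named H2-Ea, the I-E alpha chain, averaged 8.80 in modafinil and 8.71 in vehicle arrays, a difference of 0.10 (adjusted p = 0.348). A signal there goes against the promoter deletion of this strain, and whether the probe set reads that transcript was not tested.

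Of 14 genes of the interferon gamma signal, 13 had a probe set with 1 symbol and 9 were tested across the regions. Gbp2 rose by 2.32 (SE 0.309, adjusted p = 4.2e-05) and Irf1, a transcription factor of that signal, by 0.41 (SE 0.083, adjusted p = 0.00691), while none fell. Thus 2 of the 9 were called, where 0.841% of all probe sets tested were. This list was written with earlier results of these data known, so the count is a description. The median of the 9 was −0.00689, beside −0.03 over all. Within regions Gbp2 passed in PFC (2.42, SE 0.415, adjusted p = 0.0345), with 2.44 in VTA (adjusted p = 0.0565) and 2.04 in NAC. In vehicle arrays Gbp2 averaged 6.39 in PFC, 6.11 in VTA and 5.95 in NAC. The 40th percentile of an array was at least 6.584, 6.129 and 6.162 there. Across the regions it averaged 6.19 in vehicle arrays, below H2-Aa 1438858_x_at at 6.31 (percentile 38.9). Gbp2 thus entered these tests through the modafinil arrays, and its calls are a description. Ifng itself was under the filter, and without it the change was 0.02 (SE 0.037).

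Class I presentation genes, which serve CD8+ T cells, are partly induced by the same signal. Of the 12, all on the array, 10 were tested across the regions and 7 rose: B2m, H2-D1, Tap1, Tap2, Tapbp, Psmb8 and Psmb9. Psmb8, an immunoproteasome subunit, had the largest of these at 0.92 (SE 0.141, adjusted p = 0.000178), and the class I light chain B2m had 0.69 (SE 0.115, adjusted p = 0.000561). The median of the 10 was 0.34. Of all probe sets tested across the regions 0.444% were called higher. The list was written with earlier results of these data known, so its count of 7 is a description. Within regions Psmb9 passed in VTA (1.01, adjusted p = 0.0497) and the peptide transporter gene Tap1 in PFC (0.86, adjusted p = 0.0326). Of all probe sets tested 0.259% passed in VTA and 0.0518% in PFC. Tap1 averaged 6.37 in vehicle PFC arrays, where the 40th percentile of an array was at least 6.584. Across the regions it averaged 6.2 in vehicle arrays, below H2-Aa 1438858_x_at at 6.31 (percentile 38.9). In both tests Tap1 had entered through the modafinil arrays, so its calls are a description. Nlrc5, the class I counterpart of Ciita, was under the filter but averaged 6.54 in modafinil and 5.07 in vehicle arrays, and was named after its values were seen.

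Markers of the cells that could carry class II were set beside these results. The level of the microglia list, 18 of whose 19 genes were on the array, averaged 8.06 in modafinil and 8.05 in vehicle arrays in VTA, 8.55 and 8.54 in NAC, and 8.85 and 8.84 in PFC. Exact two-sided permutation tests gave p = 0.881, 0.944 and 0.851 in these regions. Of the 17 tested microglia genes 0 were called in any region, where 0.259%, 0% and 0.0518% of all probe sets tested were. With shares that small, 0 called does not set these genes apart from the rest. The lists for border macrophages, dendritic cells and B cells differed by −0.03 to 0.07 between the groups. In vehicle VTA arrays 7 of 12 border macrophage genes, 6 of 9 dendritic cell genes and 6 of 8 B cell genes on the array were under the 40th percentile.

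Genes of monocytes and neutrophils, 7 of 8 on the array, were higher in modafinil arrays by 0.20 in VTA, 0.18 in NAC and 0.16 in PFC, with list levels of 5.59 to 6.12 against 5.54 to 5.80 in VTA, 5.65 to 6.41 against 5.71 to 5.98 in NAC, and 6.21 to 6.70 against 6.17 to 6.55 in PFC. Exact permutation tests gave p = 0.0635, 0.278 and 0.0496, and the lowest value of this list after adjustment over the 33 list tests was 0.524. Of the 7, 4 were under the 40th percentile in each region. T and NK cell genes, 9 of 12 on the array, had 5.80 to 6.06 in modafinil PFC arrays and 5.71 to 5.90 in vehicle PFC arrays, a difference of 0.11 (exact permutation p = 0.0169, 0.279 after adjustment). Of the 9, 6 were under the 40th percentile there, and Cd3g, a defining T cell gene, stood at percentile 1.61. Astrocyte genes were lower by 0.18 in VTA (exact permutation p = 0.00794, 0.262 after adjustment). Their levels did not overlap, at 10.31 to 10.4 in modafinil and 10.42 to 10.73 in vehicle arrays. That p is the smallest this test can give with 5 arrays per group. A list alone in VTA or NAC therefore could not pass after adjustment, and the adjusted value decides nothing there. The part of these cells in the class II values was not tested.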

How the data were processed

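Messenger RNA of 36 brain samples was measured on single-colour Affymetrix mouse expression arrays. The authors deposited log2 values computed with RMA, per the submitters' processing notes, whose version those notes do not name. Their range, 2.14 to 14.6, fits that scale. Raw intensities and scan dates were not used here. The values were used as deposited, and each of the 36 arrays was matched to 1 label. Of 45101 probe sets 64 were controls. The members and lists were chosen with earlier results of these data known.

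Linear models were run per comparison in limma 3.58.1 (lmFit, eBayes; R 4.3.3), on probe sets at or above the 40th percentile of the mean. P-values were adjusted by the Benjamini and Hochberg method, with a threshold of 0.05. Vehicle levels were compared after quantile normalization of the 18 vehicle arrays. Marker lists were compared by two-sided exact permutation of their mean level per array. All 7 members are named, with each list gene past the test and otherwise up to 4 by smallest p, from the brightest probe set per gene, and the 5 genes most like each member. Alternatives were no filter, a 60th percentile filter, quantile normalization, trend and robust moderation, array weights, 1 probe set per gene, the replicate block and leaving out each array. The fits were tested on simulated data.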

Additional observations from a re-analysis of the deposited data

Results flagged for a closer look

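In 90 combinations of probe set and group, 4 had an array far from the rest of its group by Dixon's criterion, and chance gives about 5 percent of groups. H2-Aa 1452431_s_at read 5.016 in modafinil VTA array 3, against 5.275 in the next lowest array of that group. H2-Ab1 1425477_x_at read 6.757 in modafinil PFC array 7, against 6.41 in the next highest. H2-Aa 1435290_x_at read 5.984 in vehicle VTA array 1, against 4.796 in the next highest. H2-Aa 1443783_x_at, at the floor of the array, read 3.367 in vehicle PFC array 1, against 3.163 in the next highest.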

How the results depend on the processing

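The counts of members past the threshold were 0 in NAC and PFC, and 0 in the differences of the change between regions, under every alternative run. In VTA the count was 1 with all 36 arrays in 1 fit, where Cd74 passed (0.33, adjusted p = 0.0435), and 0 otherwise. The share of all probe sets called in that fit is not given here, so this count is a description. Across the regions the count was 7 without the filter and 0 with the 60th percentile filter, which left 2 probe sets to test. It was 3 in all 36 fits that each left out 1 array. The vehicle levels gave counts of 10 for NAC minus VTA, 10 for PFC minus VTA and 12 for PFC minus NAC without the filter, where 15 were tested and 56.2%, 62.1% and 56.2% of all probe sets passed. With 1 array left out they ran from 2 to 3, from 1 to 3 and from 3 to 3. The value of Ctss in VTA ran from −0.03218 to 0.06825 with 1 array left out. The differences of the change ran from −0.1686 to 0.0215 for H2-Aa 1438858_x_at and from −0.2138 to 0.06154 for H2-Eb1 in VTA minus NAC, and from −0.1236 to 0.07455 for H2-Eb1 in VTA minus PFC. In NAC minus PFC they ran from −0.08925 to 0.03495 for Cd74, −0.1657 to 0.02407 for Ctss, −0.1338 to 0.05635 for H2-Aa 1438858_x_at and −0.08206 to 0.1933 for H2-Eb1. None of these passed the test, and the cause was not tested. Modafinil and vehicle arrays share replicate numbers, but same-numbered arrays of a region did not deviate together (correlations of −0.518 to 0.265). Between regions of 1 treatment same-numbered arrays correlated at −0.119 to 0.321, and vehicle VTA arrays matched their own number best in 4 of 5 cases in NAC and 4 of 5 in PFC. With the replicate block, which across the regions was treatment and number as a random block (consensus correlation 0.0743), 3 members passed across the regions and 0 within each. Ciita and H2-Ab1 read low on the arrays, and what this did to the size of their changes was not tested.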
